A study of Mus musculus with 6 samples.

Results

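The genes described here are 10 components of the Notch pathway, chosen by name from the 24736 genes of the deposited table, with earlier results of these data known. They are the receptors Notch1, Notch2 and Notch3, the ligands Dll1, Dll3 and Jag1, the modifying enzyme Lfng, and the transcriptional regulators Hes1, Hes6 and Hey1. RNA was sequenced from 3 libraries of mouse embryonic stem cells (ESCs) and 3 libraries of epiblast-like cells (EpiLCs), labelled as biological replicates. Both groups were WT cells of 1 XY line, HM1 TetON, so the values describe that line. ESCs (0 h) were grown with serum and LIF (1000 U/ml) on mitotically inactivated feeder fibroblasts, and EpiLCs came from 48 h without serum, LIF or feeders in N2/B27 basal medium, with bFGF at 10 ng/ml and the porcupine inhibitor LGK974, which blocks WNT secretion, at 5 µM. Feeders were removed by adhesion before differentiation, but whether they were also removed from the 0 h ESCs before RNA was extracted is not given in the sources used here, and feeder RNA in the ESC libraries cannot be told apart from that of ESCs. The culture methods of the study give a longer time for EpiLCs than the labels. Feeders, serum, LIF, basal medium, bFGF, LGK974 and time changed together, and their contributions cannot be told apart.

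Notch receptors are single-pass membrane proteins that are cleaved when a DSL ligand (a Delta-like or Jagged protein) on a neighbouring cell pulls on them. The released intracellular domain enters the nucleus and, with RBPJ and a Mastermind protein, turns on targets such as Hes1 and Hey1, which encode basic helix-loop-helix repressors. The pathway is known for keeping progenitors undifferentiated and for segmenting the mesoderm, and Hes1 oscillates and also answers to signals other than Notch. RNA levels of these genes do not measure receptor cleavage.

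The libraries held between 16967741 and 28521848 expected counts in ESCs and between 30683164 and 35096210 in EpiLCs, at which 3 counts correspond to between 0.0855 and 0.177 CPM (counts scaled to the library total), covering counting error only. The labels matched their markers: Nanog, a naive pluripotency gene, fell from a mean of 324 ± 42.4 TPM to 12.1 ± 9.08 TPM (SD, n = 3) in EpiLCs, Fgf5, an epiblast gene, was higher in EpiLCs (31.6 and 89.6 TPM), and Pou5f1 did not pass the test. All 8 naive markers listed were lower and all 6 EpiLC markers higher in EpiLCs. Among the 3 ESC libraries, ESC 2 had the highest level of 16 of 18 tested fibroblast markers and ESC 1 of 12 of 14 tested streak and mesoderm markers. Levels are given as TPM, which is scaled for transcript length and library size.

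Of the 10 genes, 7 differed between EpiLCs and ESCs at an adjusted p of at most 0.05 (edgeR's quasi-likelihood test, Benjamini-Hochberg adjusted over 14468 genes). Hes6 was higher and Notch1, Notch3, Dll1, Jag1, Hes1 and Hey1 were lower, whereas Notch2, Dll3 and Lfng did not pass. Without EpiLC replicate 1 or without EpiLC replicate 3 the count was 4 of 10, while over all genes it went from 6571 to 4244 without EpiLC replicate 1. Of all genes tested, 45.4% passed, 22.6% higher and 22.8% lower, so passing by itself is not unusual here. For 5 genes the log2 fold change also exceeded 1 in size, as it did for 20.2% of all genes. The TPM ranges of the groups did not overlap for 8 of the 10, against 59.5% of all genes. The median log2 fold change of the 10 was -0.58, beside -0.0017 over all genes tested and -0.0381 over 53 other pathway genes tested. Because the 10 were chosen with earlier results of these data known, their counts and median describe them and are no test of the pathway.

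**Figure D1:**
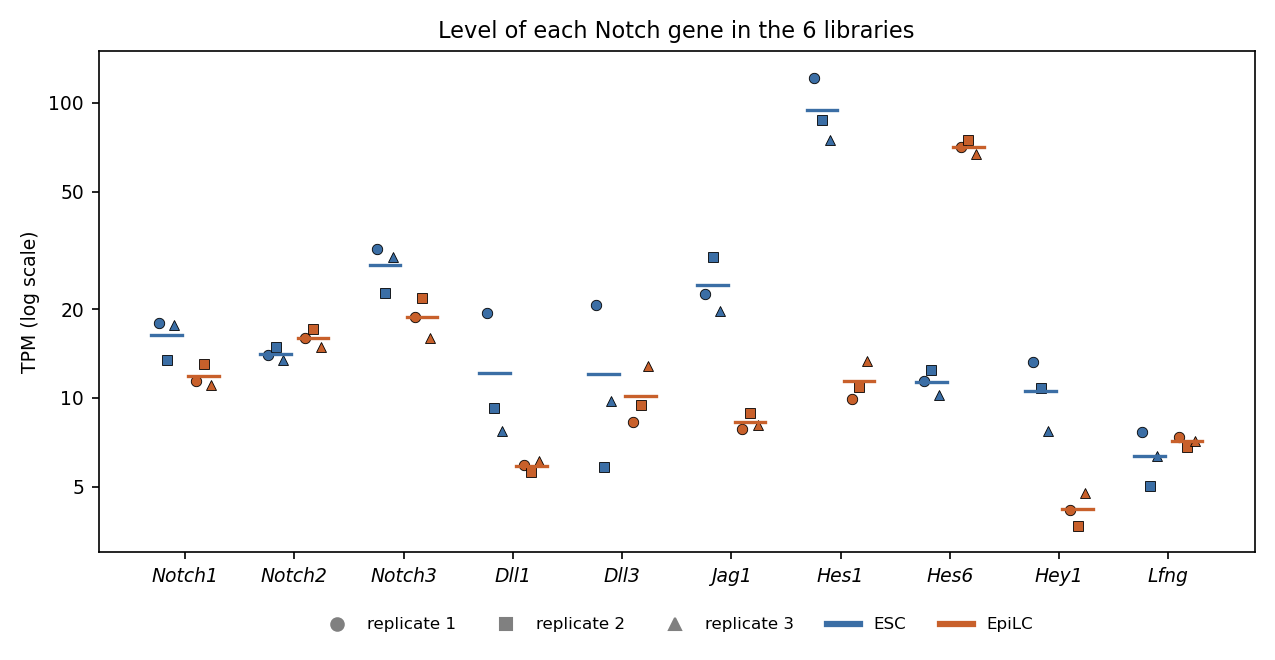
TPM (log axis) of the 10 Notch pathway genes in each of the 3 ESC and 3 EpiLC libraries, with 1 point for each library and a line for the group mean. Hes1 and Hes6 change places, and Dll3 and Lfng overlap between groups.

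For the sequence context, 250 bases upstream of the start site are given for Jag1, Lfng and Hes6, from RefSeq on GRCm38.p6. They are shown because Jag1 fell most among the ligands, Lfng did not pass the test and has the RBPJ letters, and Hes6 rose. Capitals mark letters that match the RBPJ core TGGGAA, the HES N-box CACNAG or the HES class C site CACGNG on either strand. Hes6 has a second RefSeq window, at an internal start, which is not printed and holds an N-box match, CACCAG, 237 to 232 bases before that start.
Jag1 (chr2:137116521-137116770, minus strand): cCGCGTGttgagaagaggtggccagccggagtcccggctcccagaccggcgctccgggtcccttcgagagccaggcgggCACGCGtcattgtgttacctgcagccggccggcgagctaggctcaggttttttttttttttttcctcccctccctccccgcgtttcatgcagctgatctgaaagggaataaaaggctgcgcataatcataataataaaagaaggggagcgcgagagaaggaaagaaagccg
Lfng (chr5:140607091-140607340, plus strand): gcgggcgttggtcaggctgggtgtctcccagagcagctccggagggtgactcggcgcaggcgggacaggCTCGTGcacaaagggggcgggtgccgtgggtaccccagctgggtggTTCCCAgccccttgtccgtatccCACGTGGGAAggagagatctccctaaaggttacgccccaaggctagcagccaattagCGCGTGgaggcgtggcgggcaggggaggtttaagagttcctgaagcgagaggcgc
Hes6 (chr1:91414039-91414288, minus strand): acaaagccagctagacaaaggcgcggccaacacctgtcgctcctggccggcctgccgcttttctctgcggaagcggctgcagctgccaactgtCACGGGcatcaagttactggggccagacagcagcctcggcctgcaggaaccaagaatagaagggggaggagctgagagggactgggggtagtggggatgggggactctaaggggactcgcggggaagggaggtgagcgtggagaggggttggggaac
RefSeq windows (250 bases before to 50 after the start) were found for 8 of the 10 genes, in 10 windows, with no window for Hes1 or Hey1. The RBPJ core occurred in 1 of these 10 windows, that of Lfng, and in 25.6% of 32851 mouse promoter windows. In Lfng its forward match (108 to 103 bases before the start) overlaps a class C match, CACGTG, and its reverse match lies 135 to 130 bases before the start. The N-box was in 6 of 10 windows and in 42.5% of all, and the class C site in 7 of 10 windows and in 27.5% of all. CACGAG counts for both HES motifs. A match shows only that the letters are in the window.

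Among the receptors, Notch1 and Notch3 were lower in EpiLCs and Notch2 was not shown to differ. Notch1 (chr2:26457902-26503822), the receptor with the broadest roles in development, had TPM of 17.88, 13.44 and 17.69 in ESCs 1 to 3 and of 11.44, 13.00 and 11.03 in EpiLCs. Every EpiLC library lay below every ESC library, with the closest pair at 13.00 and 13.44. The log2 fold change was -0.52 (SE 0.126, adjusted p = 0.0146, edgeR). Notch3 (chr17:32120820-32166896), the most abundant of the receptors here, had TPM of 31.94, 22.75 and 30.0 in ESCs and of 18.73, 21.72 and 16.01 in EpiLCs. The groups did not overlap, and the log2 fold change was -0.64 (SE 0.153, adjusted p = 0.0140). Leaving out EpiLC replicate 1 or 3 removed both calls. Without EpiLC replicate 1 the adjusted p was 0.0617 for Notch1 and 0.0534 for Notch3, and without EpiLC replicate 3 it was 0.0577 and 0.0506. Without EpiLC replicate 2 both calls remained (adjusted p = 0.0318 and 0.0225, edgeR). Notch2 (chr3:98013538-98150367) had TPM of 14.03, 14.84 and 13.49 in ESCs and of 16.02, 17.10 and 14.86 in EpiLCs. Its groups just missed overlapping, with ESC 2 at 14.84 and EpiLC 3 at 14.86. Its log2 fold change was 0.13 (95% interval -0.04 to 0.29, adjusted p = 0.176).

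Summed receptor TPM was lower, and the share of Notch2 in it larger, in every EpiLC library than in any ESC library. The sum over Notch1, Notch2, Notch3 and Notch4 was 62.2 ± 6.83 in ESCs and 47.1 ± 5.00 in EpiLCs (SD, n = 3). Notch2 took 23.0% ± 3.74 of the sum in ESCs and 34.1% ± 1.23 in EpiLCs, whereas Notch3 took 45.2% ± 3.00 and 39.9% ± 1.89. Notch4, a receptor of vascular endothelium that is not among the 10, took 5.61% and 0.918%. The exact permutation p was 0.1 for each of these shares and for the sum, the smallest that 3 against 3 libraries allow, and 0.3 for the share of Notch1 (26.2% and 25.2%).

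**Figure D2:**
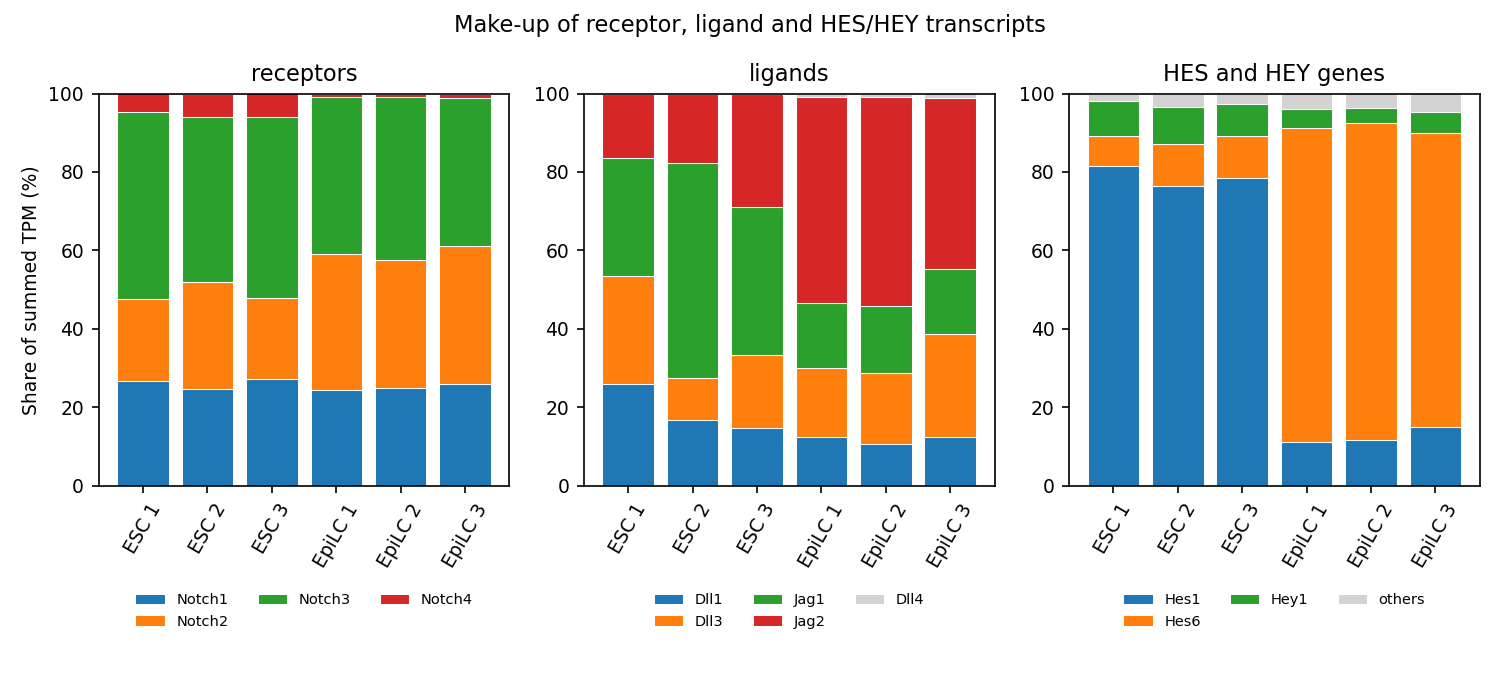
Share of each gene (percent of summed TPM) within receptors, ligands, and HES and HEY genes, as stacked bars for each library. Jag1 gives way to Jag2 among ligands (16.7% and 49.8% in EpiLCs) and Hes1 to Hes6 among the HES and HEY genes (12.6% and 78.6% in EpiLCs).

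Among the ligands, Jag1 and Dll1 fell and Dll3 was not shown to differ. Jag1 (chr2:137081451-137116520), a Jagged ligand that binds several Notch receptors, had TPM of 22.51, 30.08 and 19.74 in ESCs and of 7.86, 8.89 and 8.11 in EpiLCs. Every ESC library was well above every EpiLC library. Its log2 fold change was -1.59 (SE 0.156, adjusted p = 4.47e-04). Jag1 was highest in ESC 2, the library with the highest summed fibroblast marker TPM (2165, 5033 and 1067 in ESCs 1 to 3 and between 316 and 457 in EpiLCs). Fn1 (910.98, 1239.53 and 561.44 TPM in ESCs) and Vim (681.71, 1270.11 and 295.17 TPM) were the largest parts of this sum in every library. In this list of 20, 12 of 18 tested markers were lower in EpiLCs. Col1a1 had TPM of 90.46, 489.12 and 28.33 in ESCs and up to 13.90 in EpiLCs, whereas Lum and Fap were at or near 0 in every library. The part of feeder RNA in the Jag1 result was not tested, and in bulk RNA fewer cells of a type and less RNA per cell cannot be told apart. Without ESC replicate 2 its call remained, over all 6 leave-one-out fits from -1.70 to -1.40.

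Dll1 (chr17:15367354-15376932), the Delta-like ligand of segmentation and lateral inhibition, had TPM of 19.43, 9.27 and 7.73 in ESCs and of 5.94, 5.63 and 6.09 in EpiLCs. ESC 1 was the highest by far, and the lowest ESC library was still above all EpiLC libraries. Its log2 fold change was -1.09 (SE 0.333, 95% interval -1.88 to -0.30, adjusted p = 0.0338). Without ESC replicate 1 it was -0.60 (adjusted p = 0.0239), and leaving out EpiLC replicate 1, 2 or 3 gave adjusted p of 0.0955, 0.101 and 0.0873. With limma on log2(TPM + 1) and on log2(TPM + 0.1) the adjusted p of Dll1 was 0.0608 and 0.0535. Dll3 (chr7:28293555-28301785), a divergent Delta-like protein that acts on Notch within the same cell, had TPM of 20.59, 5.85 and 9.80 in ESCs and of 8.28, 9.46 and 12.80 in EpiLCs. The groups overlapped, with ESC 1 the highest and ESC 2 the lowest of the 6. Its log2 fold change was -0.30 (SE 0.432, 95% interval -1.32 to 0.73, adjusted p = 0.599), and without ESC replicate 1 it was 0.30.

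Markers of streak and mesoderm cells also differed between libraries. Summed TPM of 15 streak and mesoderm markers was 565, 233 and 185 in ESCs 1 to 3 and 13.7, 13.2 and 81.0 in EpiLCs 1 to 3, and 8 of 14 tested were lower in EpiLCs. Dll1 and Dll3 were highest in ESC 1, and both also in EpiLC 3 among EpiLCs (6.09 and 12.80 TPM). For Dll1 the margin was small, with 5.94 and 5.63 TPM in EpiLCs 1 and 2. Of this list, T (Brachyury) had TPM of 179.94, 73.02 and 40.01 in ESCs and of 0.87, 0.69 and 30.69 in EpiLCs. T was not among the 8 that passed (adjusted p = 0.0925, edgeR). Among the 10 genes, ESC 1 was the highest ESC library for 7, ESC 2 for 3 (Notch2, Jag1 and Hes6) and ESC 3 for 0. The part of such cells in the ligand results was not tested.

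**Figure D3:**
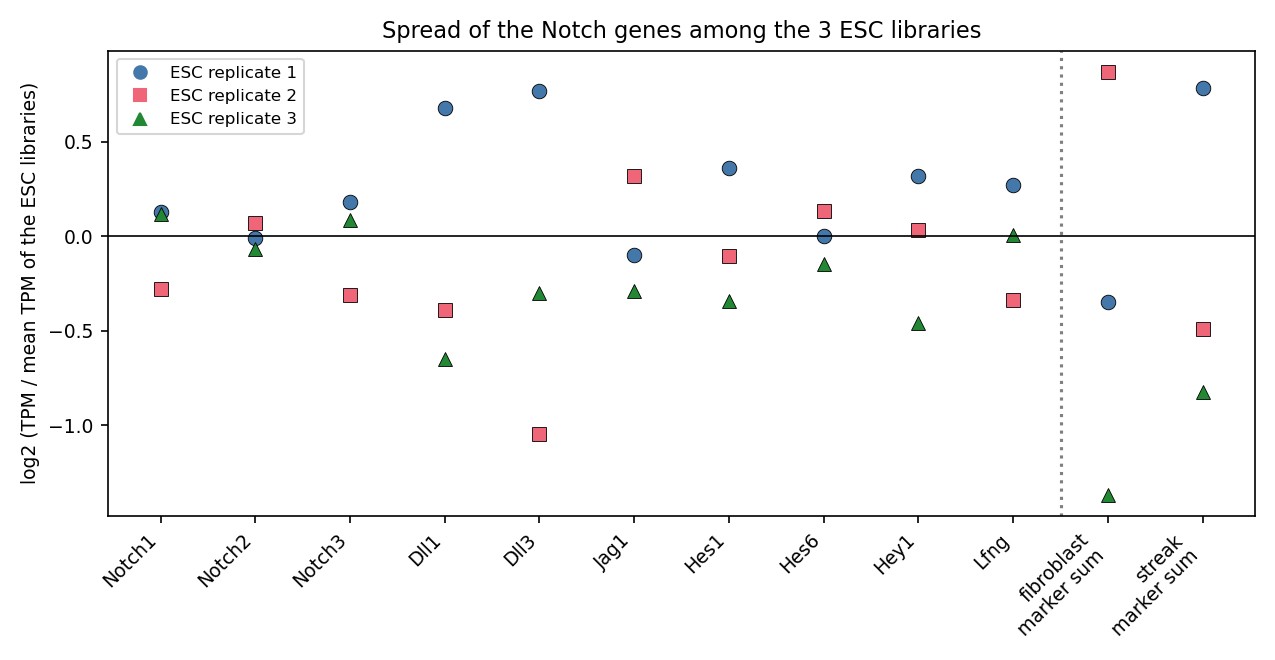
Log2 ratio of each ESC library to the ESC mean TPM for the 10 genes and for the summed fibroblast and streak marker lists, with 1 point for each library. Dll1 and Dll3 reach 0.68 and 0.77 in ESC 1, where the streak sum is also highest, and Jag1 reaches 0.32 in ESC 2, where the fibroblast sum is highest.

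Summed over Dll1, Dll3, Dll4, Jag1 and Jag2, ligand TPM was 60.7 ± 12.2 in ESCs and 49.5 ± 2.62 in EpiLCs. Jag1 took 40.8% ± 12.6 of this sum in ESCs and 16.7% ± 0.205 in EpiLCs, and Jag2, the other Jagged ligand, 20.9% ± 6.94 and 49.8% ± 5.32. The exact permutation p was 0.1 for each, the smallest possible, and 1.0 for the share of Dll3.

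Lfng (chr5:140607341-140615545) encodes the fringe enzyme that lengthens O-fucose on Notch, which favours Delta-like over Jagged ligands. It had TPM of 7.64, 5.02 and 6.37 in ESCs and of 7.37, 6.84 and 7.15 in EpiLCs. The EpiLC values lie within the ESC range. The log2 fold change was 0.11 (SE 0.184, 95% interval -0.32 to 0.55, adjusted p = 0.643). Lfng took 18.5% of summed fringe TPM in ESCs and 19.6% in EpiLCs (exact permutation p = 0.7), with most of the rest from Rfng, another fringe (70.8% and 67.1%).

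Hes1 and Hes6 showed the largest changes of the 10, in opposite directions. Hes1 (chr16:30065357-30067796), a basic helix-loop-helix repressor and textbook Notch target, had TPM of 121.11, 87.73 and 74.54 in ESCs and of 9.93, 10.89 and 13.35 in EpiLCs. Mean TPM was 8.29 times higher in ESCs, and the log2 fold change was -3.10 (SE 0.210, adjusted p = 1.33e-04). Hes6 (chr1:91411483-91414038), a related protein that opposes HES1 and is not known as a direct Notch target, had TPM of 11.37, 12.43 and 10.25 in ESCs and of 71.02, 74.52 and 67.16 in EpiLCs. Mean TPM was 6.25 times higher in EpiLCs, and the log2 fold change was 2.60 (SE 0.102, adjusted p = 2.50e-05). Hey1 (chr3:8663359-8667038), a Hairy-related repressor, had TPM of 13.19, 10.83 and 7.70 in ESCs and of 4.16, 3.69 and 4.78 in EpiLCs. The groups did not overlap, and Hey1 fell by a log2 fold change of -1.37 (SE 0.230, adjusted p = 0.00352). Hes1, Hes6, Hey1 and Jag1 passed in every alternative fit. Hes1 and Hey1 were highest in ESC 1 and lowest in ESC 3, as were the summed TPM of the streak and mesoderm markers given above and that of 8 primitive endoderm markers (57.3, 42.9 and 33.5 in ESCs 1 to 3 and between 11.3 and 11.8 in EpiLCs). Hes1, Hey1 and the streak sum were also highest in EpiLC 3 among EpiLCs. Of the endoderm markers, 5 were lower and 1 was higher in EpiLCs, and among ESCs 5 were highest in ESC 1, 2 in ESC 2 and 1 in ESC 3. The part of streak or endoderm cells in the Hes1 and Hey1 results was not tested.

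The ratio of Hes6 to Hes1 TPM was 0.0939, 0.142 and 0.138 in ESCs and 7.15, 6.84 and 5.03 in EpiLCs. Within the 9 HES and HEY genes listed, Hes1 took 78.8% ± 2.63 of summed TPM in ESCs and 12.6% ± 1.99 in EpiLCs, and Hes6 9.75% ± 1.81 and 78.6% ± 3.11 (exact permutation p = 0.1 for each). The sum itself was 119 ± 27.0 TPM in ESCs and 90.2 ± 1.96 in EpiLCs. The order of levels moved accordingly. In ESCs, Hes1 was above all others without overlap, followed by Notch3 and Jag1, which overlap, and Lfng was lowest. In EpiLCs, Hes6 was above all others, then Notch3 and Notch2, which overlap, and Hey1 was lowest.

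**Figure D4:**
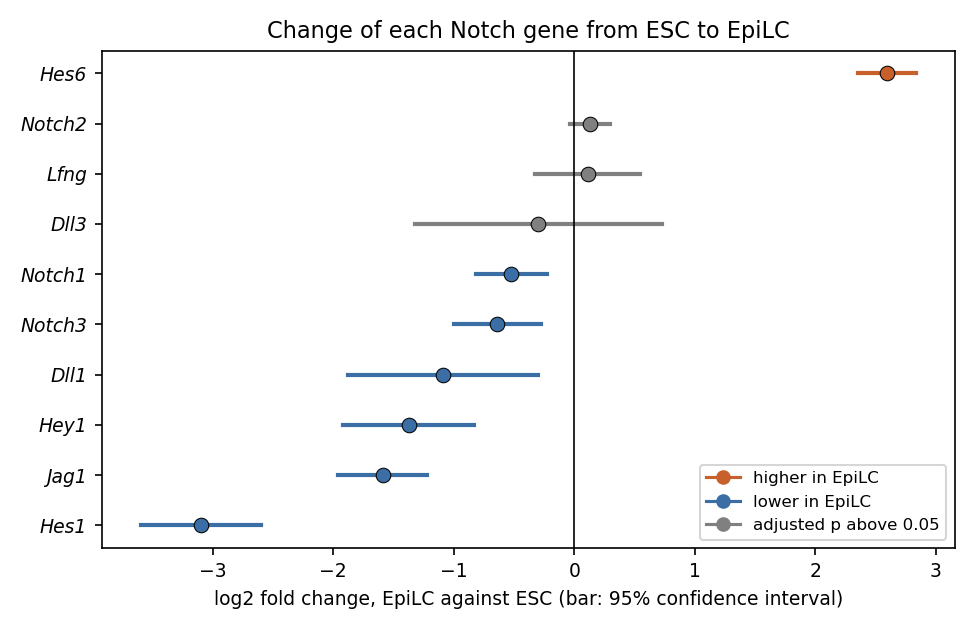
Log2 fold change of EpiLC against ESC for the 10 genes (points) with 95% intervals, coloured by direction or by not passing at adjusted p 0.05. Hes1 lies at -3.10 and Hes6 at 2.60, and the intervals of Notch2, Dll3 and Lfng cross 0.

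Of 58 other genes of the pathway, 53 were tested and 24 passed, 9 higher and 15 lower, which is 45.3% and close to the 45.4% of all genes. Without EpiLC replicate 1, 14 passed, 5 higher and 9 lower. The median log2 fold change of the 53 was -0.0381. Rbpjl, Hes3, Hes7, Heyl and Helt had too few counts to be tested. Among other receptors and ligands, 3 of 5 passed. Notch4 had TPM of 3.13, 3.31 and 3.96 in ESCs and of 0.36, 0.48 and 0.45 in EpiLCs (log2 fold change -3.07, adjusted p = 1.23e-04). Jag2 had TPM of 12.18, 9.64 and 15.16 in ESCs and of 24.74, 28.00 and 21.36 in EpiLCs (log2 fold change 0.94, SE 0.179, adjusted p = 0.00574), so Jag1 fell and Jag2 rose. Dll4, a vascular ligand, was near its floor in ESCs, with 5 counts summed over ESC libraries and 77 over EpiLC libraries. The ratio was 10.4 per total count (exact 95% interval 4.28 to 33.1, for counting error only, and adjusted p = 0.00112, edgeR). Dll4 entered the test only through its EpiLC counts. Its call, among the 3 of 5 and the 9 higher above, could only have been higher. Summed TPM of 7 endothelial and blood markers was between 40.8 and 52.7 in ESCs and between 7.05 and 8.26 in EpiLCs, and 5 of 6 tested were lower. Pecam1, which ESCs also express, made up most of that sum (23.89, 25.80 and 41.02 TPM in ESCs), whereas Cdh5, Tie1, Tal1 and Gata1 each stayed below 2 TPM in every library. Kdr (13.96, 3.72 and 5.52 TPM in ESCs and at most 0.50 in EpiLCs) and Runx1 (6.22, 8.57 and 3.10 TPM in ESCs and at most 1.88 in EpiLCs) were lower in EpiLCs, as Notch4 was. Tal1 did not pass (log2 fold change 0.81, adjusted p = 0.0649, edgeR). Among ESCs, Notch4 was highest in ESC 3, as were 2 of the 6 tested markers, while 3 were highest in ESC 1, with Kdr, and 1 in ESC 2, Runx1. The part of endothelial cells in the Notch4 result was not tested.

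Of the glycosylation genes, 1 of 5 passed, Eogt, named after its values were seen. Over all genes tested 45.4% passed, the share to set beside this count and that of the cleavage genes below. Poglut1, which glucosylates Notch and was the most abundant, had a log2 fold change of 0.13 (adjusted p = 0.250). None of the 10 receptor cleavage genes, among them the ADAM proteases and the gamma-secretase subunits, passed (edgeR with TMM, where 0 also had an unadjusted p under 0.05; with DESeq2 0 passed and 1 had an unadjusted p under 0.05, as in the edgeR fits with upper-quartile or RLE normalization, without the filter or with the replicate block, and with limma both counts were 0), with log2 fold changes from -0.67 to 0.32. Without ESC replicate 3 the count was 3 (Adam10, Adam17 and Aph1b, named after their values were seen). Psenen, a gamma-secretase subunit, had a log2 fold change of -0.04 (adjusted p = 0.781). Near-identical Aph1b and Aph1c can share reads, so their values are uncertain.

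Of 13 genes of ubiquitination and endocytosis, 6 passed, 3 in each direction, which is 46.2% and near the 45.4% of all genes. Dtx4, a Deltex ubiquitin ligase that acts on Notch, had TPM of 1.89, 1.88 and 2.23 in ESCs and of 21.22, 18.72 and 20.29 in EpiLCs, a log2 fold change of 3.27 (SE 0.116, adjusted p = 1.83e-05). Itch, with the highest mean TPM over the 6 libraries, though below Dtx3 in EpiLCs, had a log2 fold change of -0.18 (adjusted p = 0.104). Of 16 nuclear complex and corepressor genes tested, 12 passed (75.0%), 3 higher and 9 lower. Over all genes 45.4% passed, 22.6% higher and 22.8% lower. Tle3, a Groucho corepressor that HES proteins recruit, had TPM of 74.00, 57.67 and 72.04 in ESCs and of 28.82, 26.17 and 35.09 in EpiLCs (log2 fold change -1.23, adjusted p = 8.89e-04), and Ctbp2, the most abundant, rose by 0.66 on the log2 scale (adjusted p = 4.36e-04). Maml2, a Mastermind coactivator, fell (log2 fold change -1.44, adjusted p = 0.0220), and its adjusted p was 0.0738 without EpiLC replicate 1. Rbpj, the DNA-binding partner of Notch, named after its values were seen, had TPM of 113.76, 140.40 and 139.61 in ESCs and of 74.19, 75.04 and 68.36 in EpiLCs (log2 fold change -0.90, SE 0.0952, adjusted p = 5.81e-04). Rbpj has processed copies in the genome that can share its reads.

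Of 4 other HES, HEY and feedback genes tested, 1 was higher and 1 lower, beside 22.6% and 22.8% of all genes. Nrarp, a Notch target that feeds back on the pathway, had TPM of 33.79, 12.04 and 12.71 in ESCs and of 7.51, 9.96 and 8.14 in EpiLCs (log2 fold change -1.24, SE 0.402, adjusted p = 0.0415). It was highest in ESC 1, like Dll1. Without ESC replicate 1 its log2 fold change was -0.61 (adjusted p = 0.0313), and without EpiLC replicate 1, 2 or 3 its adjusted p was 0.127, 0.0841 and 0.115. With the replicate block its adjusted p was 0.0667, and with limma on log2(TPM + 1) and log2(TPM + 0.1) it was 0.0718 and 0.0640. Hes2, the gene that was higher, was near the floor in ESCs, with between 2 and 9 counts in a library. It had TPM up to 0.27 in ESCs and from 0.53 in EpiLCs (log2 fold change 1.45, adjusted p = 0.0208, edgeR). Hes2 entered the test only through its EpiLC counts, so it could only have been called higher. Without ESC replicate 1, EpiLC replicate 1 or EpiLC replicate 2 its adjusted p was 0.0554, 0.0651 and 0.0790. With DESeq2 it was 0.0681 and with the replicate block 0.0562.

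**Figure D5:**
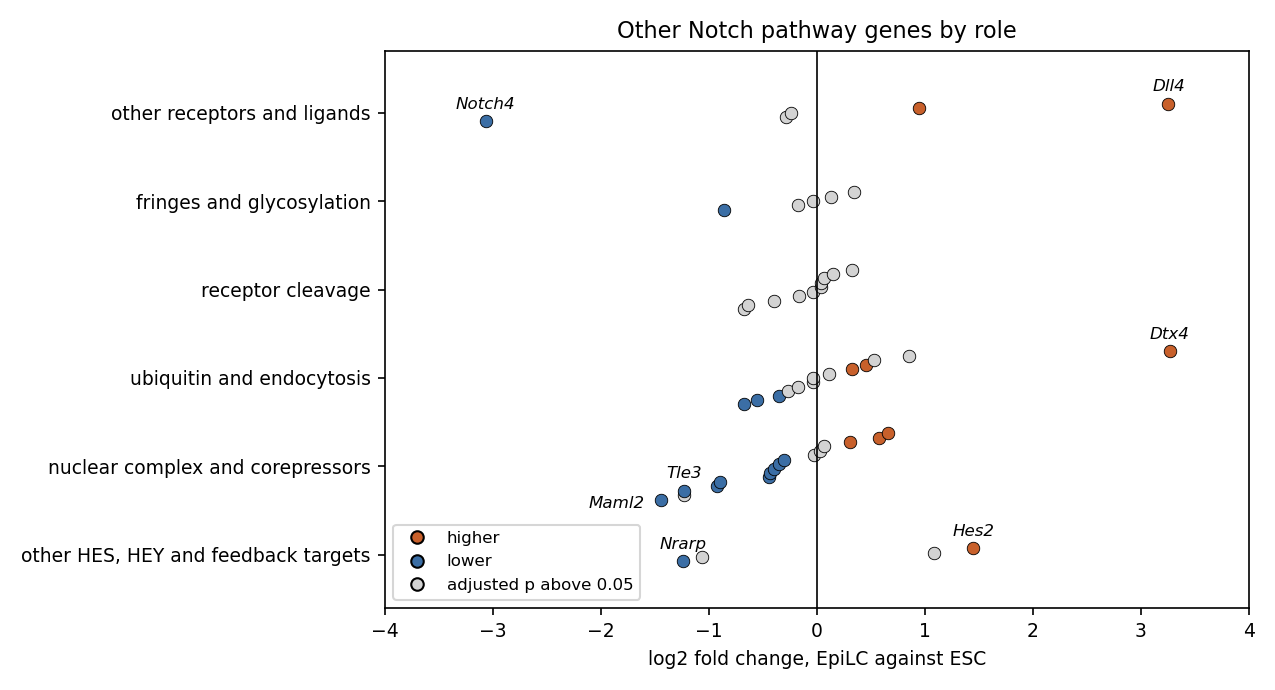
Log2 fold changes (EpiLC against ESC) of the 53 other pathway genes tested, 1 point each, grouped by role and coloured by adjusted p and direction. Cleavage genes stay between -0.67 and 0.32 with none passing, while Notch4, Dll4 and Dtx4 lie beyond 3.

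The profile nearest to each gene over the 6 libraries, by root mean square difference of centred log2 CPM among 62 pathway genes, was Nrarp for Dll1 (0.203), Notch4 for Hes1 (0.323), Dll4 for Hes6 (0.207), Hey1 for Jag1 (0.286) and Tle3 for Hey1 (0.265). Notch1 and Notch3 were close to each other (0.0916), with Aph1c nearest to Notch3 (0.0547). Aph1a was nearest to Notch2 (0.0592), Lfng to Dll3 (0.425) and Mib1 to Lfng (0.165). With 1 or 2 counts in each ESC library, the Dll4 profile there is set largely by the prior count of 2 added before the logarithm, and the next nearest to Hes6 was Dtx4 (0.383).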

How the data were processed

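RNA-seq libraries of WT ESCs and EpiLCs, 3 of each, were taken from 1 deposited table. Per the labels and the study's methods, the authors trimmed 76 nt single-end, strand-specific reads with cutadapt 1.16, mapped them with STAR 2.5.2a and quantified mm10 RefSeq genes with RSEM 1.3.0; the submitters also list DESeq2 1.16.1. The authors deposited RSEM expected counts, which divide reads shared by several genes, and TPM. Between 4.27% and 4.65% of expected counts per library were not whole.

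Counts were rounded, normalized with TMM (factors 0.979 to 1.02), filtered with filterByExpr (14468 of 24736 genes) and tested with edgeR 4.0.16 in R 4.3.3, with Benjamini-Hochberg adjustment over all genes tested and a threshold of 0.05. SE is the log2 fold change over the root of its F. Replicates differed by more than counting noise (chi-square per degree of freedom from 6.89 to 75.6). Shares were tested with exact permutation tests, two-sided. The script was tested on simulated data. The 10 genes and all lists were chosen with earlier results of these data known. Named genes were the 10, other pathway and proneural genes past the threshold with a log2 fold change above 1 in size, the most abundant gene of each role, and nearest profiles. Alternatives were upper-quartile and RLE normalization, DESeq2 1.42.0, no filter, 10 counts in every library, limma 3.58.1 on log2(TPM + 1) and log2(TPM + 0.1), a replicate block, and leaving out each library. Promoters came from RefSeq. Protein features were not analysed here.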

Additional observations from a re-analysis of the deposited data

How the results depend on the processing

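Hes1, Hes6, Jag1 and Hey1 passed under every alternative run. Leaving out 1 library in turn, between 4 and 7 of the 10 genes passed and between 3 and 6 were lower. Among the other pathway genes between 14 and 31 passed, 5 to 11 higher and 9 to 20 lower, and over all genes between 4244 and 7181, 2144 to 3572 higher and 2100 to 3609 lower. Only 4 of the 10 passed without EpiLC replicate 1 or 3. By expected counts in place of TPM, the Hes6 share of HES and HEY genes differed by 65.9 percentage points between groups, against 68.8 by TPM. Dll1 did not pass with limma on log2(TPM + 1) (-0.83, adjusted p = 0.0608) or log2(TPM + 0.1) (adjusted p = 0.0535), nor Nrarp (0.0718 and 0.0640), nor Hes2 with DESeq2 (0.0681). The direction turned only for genes that did not pass: leave-one-out log2 fold changes ran from -0.62 to 0.30 for Dll3, from -0.028 to 0.24 for Lfng and from -0.094 to 0.017 for Psenen, which was 0.017 with limma at pseudocount 1 and 0.018 at 0.1. With the replicate block, 7 of the 10 genes passed, as did 24 other pathway genes and 6085 of all genes; Nrarp (adjusted p = 0.0667) and Hes2 (0.0562) did not. The groups share replicate numbers, but deviations of same-numbered libraries correlated at 0.00668, 0.186 and 0.17, and ESC 1 correlated best with EpiLC 3, so the numbers were not taken to pair them. At a single line and 3 libraries a group, exact permutation tests cannot go below 0.1. Hes2 and Dll4 are near 3 counts in ESCs, where depth limits their values. The causes were not tested.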

Other observations

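Proneural genes are basic helix-loop-helix activators that HES proteins repress in the nervous system. Of 8 listed, 4 had enough counts to be tested and 2 passed, both higher in EpiLCs, beside the 45.4% of all genes that passed (22.6% higher). Neurod1, a neuronal and endocrine factor, had TPM of 3.74, 3.47 and 6.36 in ESCs and of 12.66, 14.15 and 13.60 in EpiLCs, without overlap, and its log2 fold change was 1.51 (SE 0.248, adjusted p = 0.00333, edgeR). Neurod4 had 0 counts in every ESC library and TPM of 0.32, 0.25 and 0.31 in EpiLCs. Against a floor of 3 counts over the ESC group it was at least 10.4-fold higher in EpiLCs (adjusted p = 0.00341, edgeR). Neurod4 entered the test only through its EpiLC counts, so it could only have been called higher. Its place among the 2 that passed therefore carries no information on direction.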
